A study of Arabidopsis thaliana with 6 samples.

Results

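Class III peroxidases are secreted plant enzymes that use hydrogen peroxide in the cell wall. The gene set described here was chosen by locus, with no threshold on any measured value, and held 60 class III peroxidase loci of Arabidopsis thaliana. Of these, 48 had a probe set assigned to that gene alone and were measured, among 13356 genes measured in this way. A further 6 loci (AT2G18140, AT2G18150, AT2G38380, AT2G38390, AT3G17070 and AT4G37520) were covered only by 4 probe sets that they share with another gene. The last 6 loci (AT1G05240, AT1G05250, RCI3, PER4, PA2 and PER64) had no probe set in the annotation table, and neither kind was analysed here. Each of the 48 had exactly 1 probe set.

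The samples were aerial parts of seedlings grown on agar medium at 16 h light and 8 h dark for 10 days and collected 2 h after the light came on. All 6 samples were stratified for 2 days. There were 3 arrays of SPT4-R3, an RNA interference line (line 3) directed at SPT4 in the Columbia-0 background, and 3 arrays of wild-type Columbia-0. SPT4 is a small partner of SPT5 in a factor that travels with RNA polymerase II during transcript elongation. SPT4-R3 is a single line, and no source used here gives the promoter of its RNAi construct. In addition, the labels describe 3 biological replicates per genotype without naming the sowings, so p-values reflect the spread among these samples only. The SPT4 gene with its own probe set (AT5G08565, synonym SPT4-1) read 5.0, 4.89 and 4.97 on the SPT4-R3 arrays and 5.79, 6.05 and 6.03 on the wild-type arrays, lower in the RNAi line without overlap (limma adjusted p = 2.15e-06). No source gives the position of its probes against the RNAi fragment.

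Class III peroxidases are heme enzymes with a signal peptide that sends them to the cell wall or the vacuole. With hydrogen peroxide they oxidise monolignols to radicals that couple into lignin, link wall proteins and phenolics and so stiffen walls, and under other conditions they form reactive oxygen species that loosen walls. Plants hold large families of them, formed in part by tandem duplication, and many of the genes are known from roots, where they act in root hairs, the endodermis and the elongation zone. Of the 48 measured genes, 7 carry a peroxidase name in the RefSeq gene table, and the others are given here by locus.

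Signals are on the deposited log2 scale, on which a difference of 1 is a doubling. As a guide to background, the 3 probe sets of the bacterial trp control, for which no transcript is expected in the sample, read between 3.46 and 3.84 over the 6 arrays. Probe sets differ in brightness for the same amount of RNA, so a signal places a gene within the brightness distribution of the array and does not rank transcript amounts between genes.

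Most of the peroxidase genes were dim in wild-type shoots. The 48 wild-type means ran from 3.57 to 11.94 with a median of 4.56, against array medians of 6.49 to 6.53 over all plant probe sets. By rank among the wild-type means of all plant probe sets, 20 of the 48 lay in the lowest quartile range, 18 in the second, 6 in the third and 4 in the highest, so that 38 of 48 were in the dimmer part of the array. On all 3 wild-type arrays 40 of the 48 exceeded the highest trp reading, 7 did so on 1 or 2 arrays, and AT1G77100 did so on none. The median of the 48 means was 4.55 in SPT4-R3 and 4.56 in wild type, and the median SD of a gene over 3 arrays was 0.078 in SPT4-R3 and 0.0866 in wild type.

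**Figure D1:**
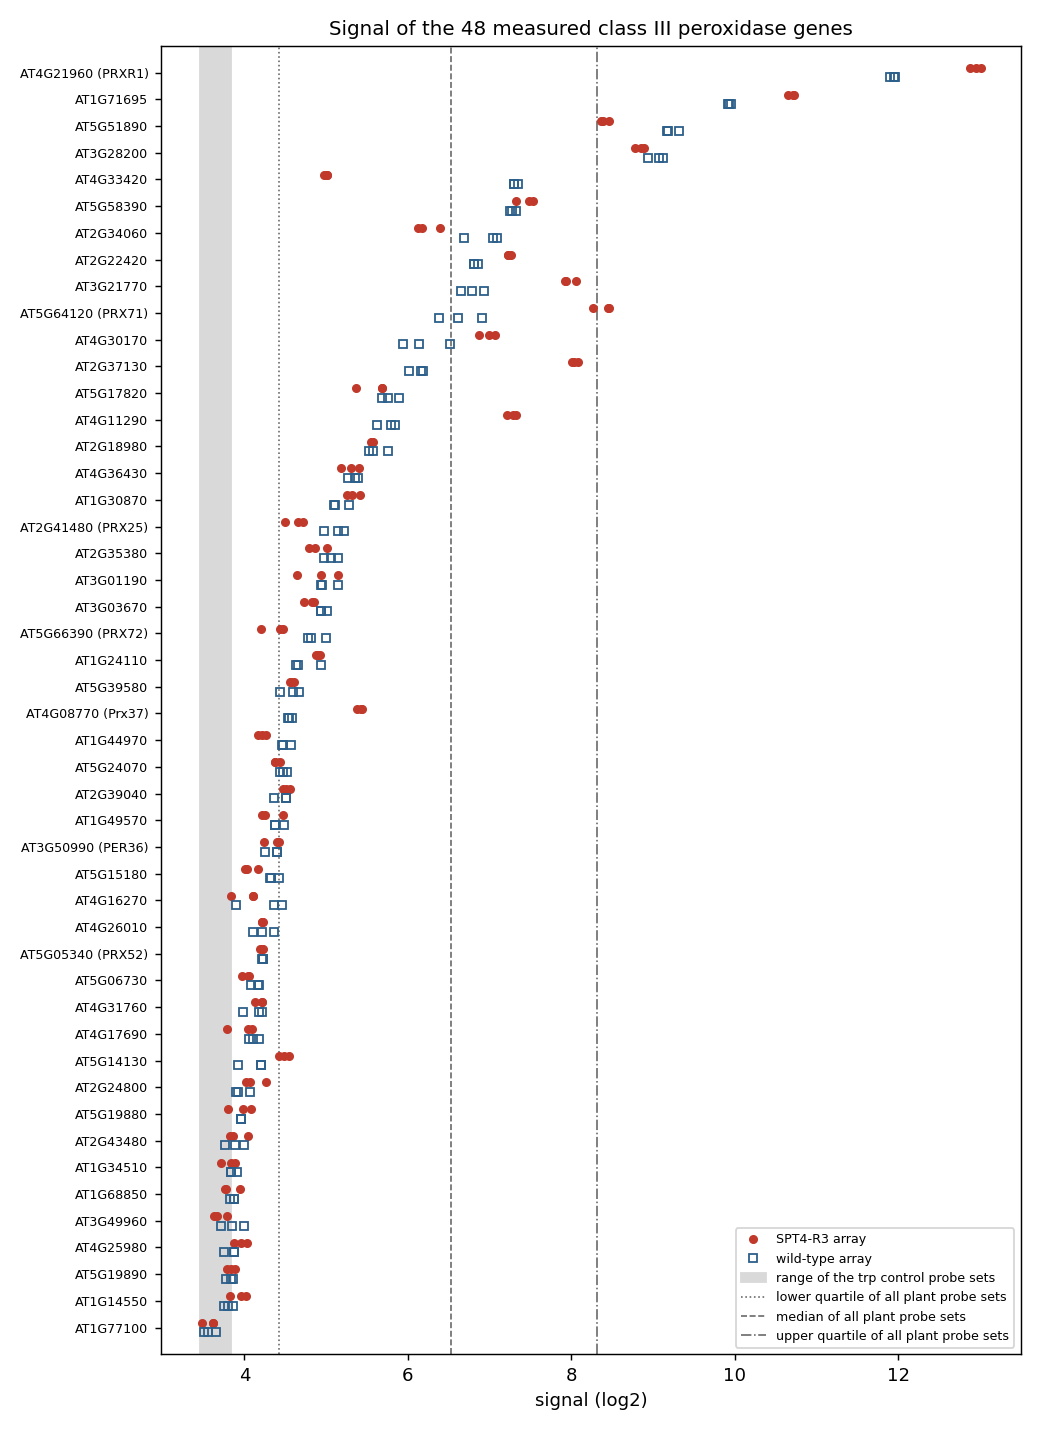
Signal (log2) of the 48 measured peroxidase genes on each array, ordered by the wild-type mean. Filled circles are the 3 SPT4-R3 arrays and open squares the 3 wild-type arrays, the grey band is the trp range of 3.46 to 3.84, and the vertical lines are the quartiles of all plant probe sets by their mean over 6 arrays (4.43, 6.53 and 8.31); most genes crowd at the dim end in both genotypes, and AT4G33420, AT2G37130, PRX71 and AT4G11290 show the widest gaps between genotypes.

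The 4 brightest peroxidase probe sets in wild type were those of PRXR1 (AT4G21960), AT1G71695, AT5G51890 and AT3G28200. PRXR1 stood at 11.94 ± 0.0321 (SD, n = 3) in wild type, above 98.4% of the plant probe sets. AT1G71695 averaged 9.94 ± 0.0208, AT5G51890 averaged 9.23 ± 0.0814 and AT3G28200 averaged 9.05 ± 0.0945, above 91.2%, 85.7% and 83.9% of probe sets.

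At the dim end, PRX52 and PER36 lay below the lower quartile of all plant probe sets in both genotypes. PRX52 (AT5G05340), known from lignin formation in stems, averaged 4.21 ± 0.0208 in SPT4-R3 and 4.22 ± 0.0115 in wild type. PER36 (AT3G50990), a seed coat peroxidase that acts in mucilage release, averaged 4.36 ± 0.102 in SPT4-R3 and 4.35 ± 0.0866 in wild type. Prx37 (AT4G08770), whose overexpression is known to dwarf plants, averaged 5.42 ± 0.0321 in SPT4-R3 and 4.56 ± 0.0208 in wild type. These values do not say whether the dim genes were transcribed, since no detection call was used.

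The comparison of genotypes asks how the peroxidase genes respond in the SPT4-R3 line. Each probe set was compared with limma's moderated test across all 22746 plant probe sets, two-sided, and called at an adjusted p under 0.05 after Benjamini-Hochberg adjustment over all of them. Of the 48 genes, 10 were higher and 9 lower in SPT4-R3, and 29 did not pass the test. Over all plant probe sets 49.9% were called, 26.4% higher and 23.5% lower, against 39.6% of the peroxidase genes, 20.8% higher and 18.8% lower. The median difference of the 48 genes was -0.007, and that of all plant probe sets was -0.003. Without overlap between the genotypes were 21 of the 48 genes (43.8%), compared with 55.1% of all plant probe sets. The shares called among the 48 measured genes were thus below those of all plant probe sets in each direction. However, 37 of the 48 had a mean signal under the array median, where smaller shares of all probe sets were called. The lower counts were therefore not read as a trait of these genes.

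The direction of the smaller changes rests on how the arrays are scaled. The bacterial bioB, bioC and bioD controls, spiked in at hybridisation, averaged 8.62 ± 0.114 on the SPT4-R3 arrays and 9.01 ± 0.0302 on the wild-type arrays (SD, n = 3), so SPT4-R3 minus wild type was -0.39 (two-sided exact permutation p = 0.1, which is the lowest value this design can reach). Centring each array on these controls adds 0.39 to every difference and gave 38 higher and 3 lower peroxidase genes, where 76.5% of all plant probe sets were called higher and 6.99% lower. The poly-A controls, added to the RNA before labelling, averaged 6.65 ± 0.0341 in SPT4-R3 and 6.80 ± 0.152 in wild type (exact p = 0.2), and centring on them added 0.15 and gave 15 higher and 5 lower, where 30.4% and 10.9% of all plant probe sets were called. Both scalings add to every difference, so a rise could only grow and a fall could only shrink. The 10 genes called higher on the deposited scale kept their calls, which says little about them for that reason. Of the 9 called lower, AT4G33420, AT5G51890 and AT2G34060 kept their calls under both.

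The share of genes called followed the brightness of their probe sets, as it did over the whole array. Probe sets were divided by their mean over all 6 arrays at the quartiles of all plant probe sets. This mean includes the SPT4-R3 arrays, so a change between genotypes can itself move a gene from one range to another. Below the lower quartile, 3 of 21 peroxidase genes were called (14.3%), 1 higher and 2 lower, beside 14.3% of all plant probe sets there, 5.54% higher and 8.77% lower. Between the lower quartile and the median, 2 of 16 were higher and 4 lower, against backgrounds of 25.6% and 23.7%. Between the median and the upper quartile, 5 of 7 were higher and 1 lower, against 36.2% and 27.4%, with a median difference of 0.777 for the 7 genes and 0.047 for all probe sets of that range. Above the upper quartile, 2 of 4 were higher and 2 lower, against 38.3% and 34.1%. The counts in the brighter ranges are small, and no test was made of them. They also depend on the division used. In wild type AT2G37130 and AT4G30170, both called higher, stood above only 45.9% and 46.7% of plant probe sets. AT4G33420, called lower, stood above 60.4% in wild type but falls between the lower quartile and the median here.

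**Figure D2:**
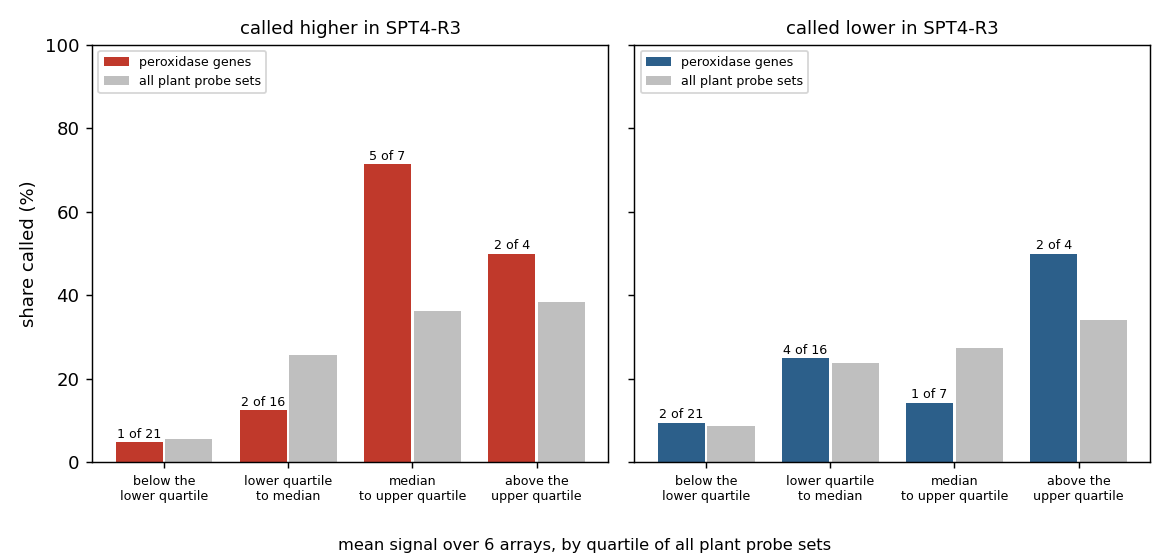
Share of peroxidase genes (coloured bars, with the count above each) and of all plant probe sets (grey bars) called higher (left panel) or lower (right panel) in SPT4-R3, by quartile range of the mean signal over 6 arrays. Among peroxidase genes from the median to the upper quartile 5 of 7 were higher, against 36.2% of all probe sets, while below the lower quartile both shares are under 10%. The mean includes the SPT4-R3 arrays, so a change between genotypes can move a gene from one range to another.

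Genes that rose are described first, from the largest difference. With a log2 change of 1 or more, 5 genes of the 48 were higher and 1 lower, where 2.2% of all plant probe sets were higher and 2.92% lower by that much.

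AT2G37130 read 8.01, 8.08 and 8.04 on the SPT4-R3 arrays and 6.19, 6.16 and 6.02 on the wild-type arrays. The lowest SPT4-R3 value lay well above the highest wild-type value. It rose by 1.92 ± 0.0603 (SE of the moderated fit) on the log2 scale, 3.78-fold (limma adjusted p = 6.69e-09), the largest rise among the 48.

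PRX71 (AT5G64120), a peroxidase known from stem lignin and from restraint of cell expansion, read 8.46, 8.27 and 8.45 in SPT4-R3 and 6.38, 6.91 and 6.62 in wild type. The genotypes did not overlap, and the wild-type arrays were more spread (SD 0.265) than those of SPT4-R3 (SD 0.107). PRX71 rose by 1.76 ± 0.117 (SE), 3.38-fold (limma adjusted p = 9.22e-07).

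AT4G11290 read 7.22, 7.29 and 7.33 in SPT4-R3 and 5.80, 5.84 and 5.62 in wild type, again with no overlap. It moved across the median of the array, with a rise of 1.53 ± 0.0682 (SE), 2.88-fold (limma adjusted p = 6e-08). AT3G21770 read 8.06, 7.92 and 7.94 in SPT4-R3 and 6.93, 6.79 and 6.65 in wild type, a rise of 1.18 ± 0.0764, 2.27-fold (limma adjusted p = 7.41e-07).

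PRXR1 was the brightest of the peroxidase probe sets and rose as well. It read 12.95, 12.88 and 13.02 in SPT4-R3 and 11.95, 11.96 and 11.90 in wild type. The genotypes were separated by far more than the spread within either, and the rise was 1.01 ± 0.0561 (SE), 2.02-fold (limma adjusted p = 2.59e-07).

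Prx37 read 5.38, 5.43 and 5.44 in SPT4-R3 and 4.54, 4.58 and 4.55 in wild type. Each of the SPT4-R3 values exceeded every wild-type value, and the rise of 0.86 ± 0.0504 (SE, limma adjusted p = 3.79e-07) was a 1.82-fold change from a wild-type signal above 27.6% of the plant probe sets. AT4G30170 read 6.87, 6.99 and 7.07 in SPT4-R3 and 6.14, 6.52 and 5.94 in wild type. Its wild-type arrays were the more variable (SD 0.295, against 0.101 in SPT4-R3), and it rose by 0.78 ± 0.125. AT1G71695 read 10.72, 10.73 and 10.65 in SPT4-R3 and 9.96, 9.93 and 9.92 in wild type, and rose by 0.76 ± 0.0515.

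The remaining genes that rose changed by less than 0.5. AT2G22420 averaged 7.24 ± 0.0173 in SPT4-R3 and 6.83 ± 0.0289 in wild type, a rise of 0.41 ± 0.0499 (SE). AT5G14130 averaged 4.48 ± 0.0651 in SPT4-R3 and 4.11 ± 0.162 in wild type, a rise of 0.38 ± 0.0808, and was the only gene below the lower quartile called higher.

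**Figure D3:**
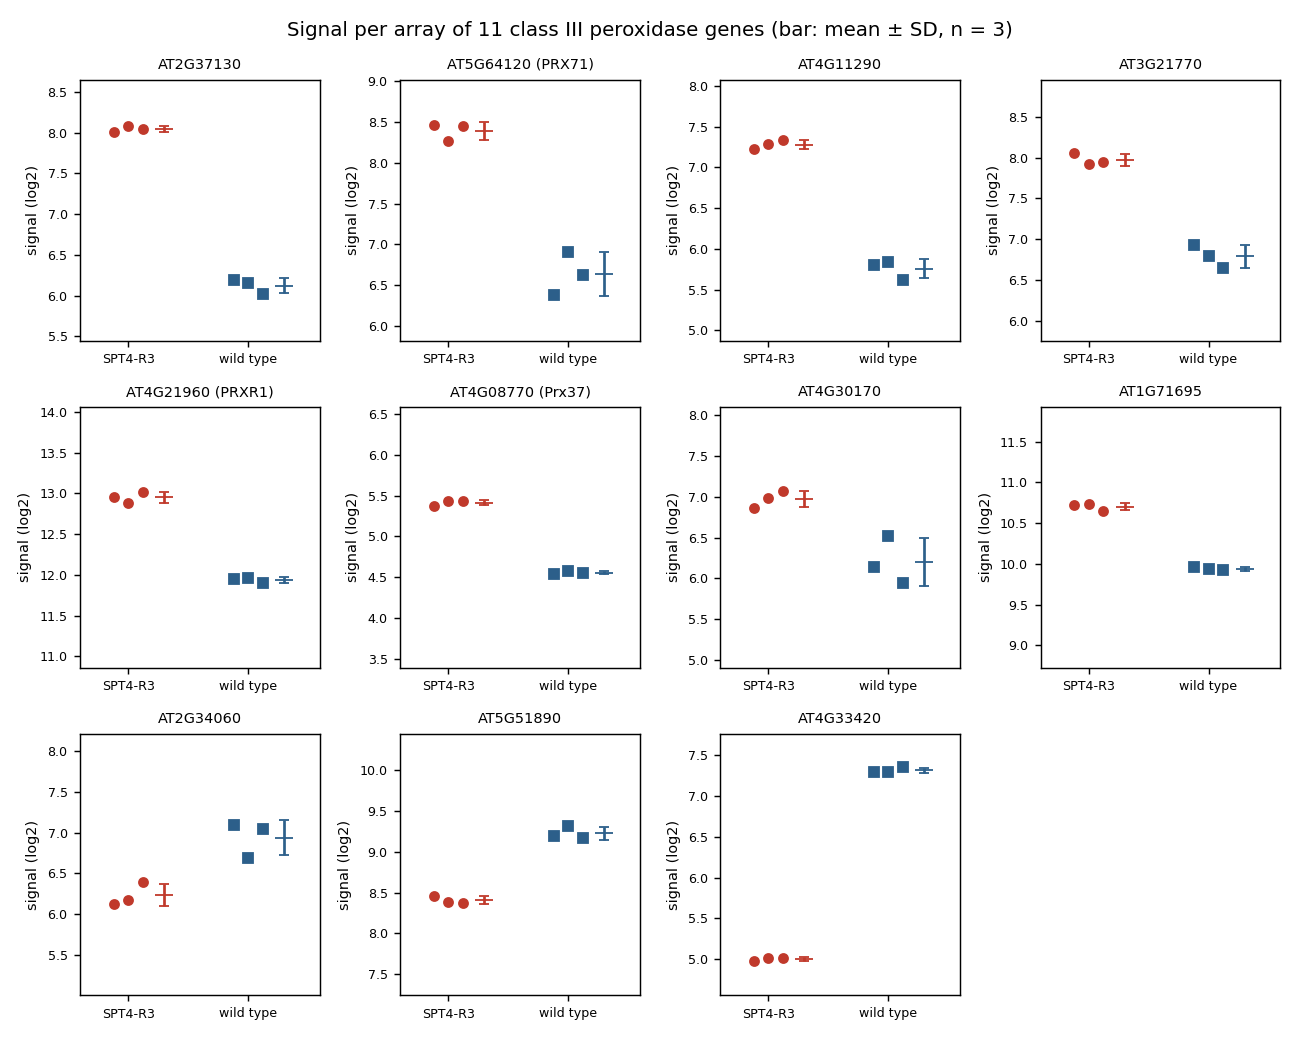
Signal (log2) on each array for the 11 peroxidase genes that passed the test with a difference of at least 0.5 and no overlap, SPT4-R3 on the left and wild type on the right of each panel. Bars are the mean ± SD of 3 arrays, every panel spans the same range of log2 units, and panels run from the largest rise (AT2G37130, 1.92) to the largest fall (AT4G33420, -2.32).

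Among the genes that fell, AT4G33420 changed most. It read 4.97, 5.01 and 5.01 on the SPT4-R3 arrays and 7.30, 7.30 and 7.35 on the wild-type arrays. The values within each genotype lay within 0.05 of each other, and the genotypes were far apart. It fell by 2.32 ± 0.0502 (SE) on the log2 scale, a 4.99-fold reduction (limma adjusted p = 7.95e-10), and was the largest change of any of the 48 genes.

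AT5G51890 read 8.46, 8.39 and 8.37 in SPT4-R3 and 9.19, 9.32 and 9.17 in wild type. It fell by 0.82 ± 0.0596 (SE), 1.77-fold (limma adjusted p = 1.75e-06), without overlap. AT2G34060 read 6.13, 6.18 and 6.39 in SPT4-R3 and 7.09, 6.69 and 7.04 in wild type, and fell by 0.71 ± 0.107 (limma adjusted p = 0.000324).

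Both of the lignin-related genes PRX25 and PRX72 were dim and lower in SPT4-R3 on the deposited scale, and neither passed the test when arrays were centred on bioB, bioC and bioD, with differences of -0.09 and -0.10. PRX25 (AT2G41480), known from lignin formation in stems, read 4.66, 4.50 and 4.72 in SPT4-R3 and 5.15, 4.97 and 5.22 in wild type, and fell by 0.49 ± 0.0801 (SE, limma adjusted p = 0.000555). PRX72 (AT5G66390), needed for full lignification of the stem, read 4.47, 4.2 and 4.44 in SPT4-R3 and 4.78, 5.0 and 4.82 in wild type, and fell by 0.50 ± 0.0852 (limma adjusted p = 0.000729). Of the 4 lignin-related named genes with a probe set, PRX71 was thus higher, PRX25 and PRX72 lower, and PRX52 did not pass the test.

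The other genes that fell changed little, and each turned to a positive difference when arrays were centred on bioB, bioC and bioD. AT1G44970 fell by 0.29 ± 0.0559 (SE) and AT5G15180 by 0.28 ± 0.0624, both below the lower quartile of mean signal. AT3G28200, the fourth brightest in wild type, read 8.89, 8.85 and 8.78 in SPT4-R3 and 8.94, 9.08 and 9.12 in wild type. Its fall of 0.21 ± 0.0632 (limma adjusted p = 0.0205) lost its call without wild type replicate 2 or 3 (adjusted p = 0.0621 and 0.078) and without SPT4-R3 replicate 2 or 3 (0.0533 and 0.0817). AT3G03670 fell by 0.16 ± 0.0559 (adjusted p = 0.0369), and lost its call without wild type replicate 2 or 3 (0.104 and 0.0606) and without SPT4-R3 replicate 1 or 3 (0.118 and 0.064).

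**Figure D4:**
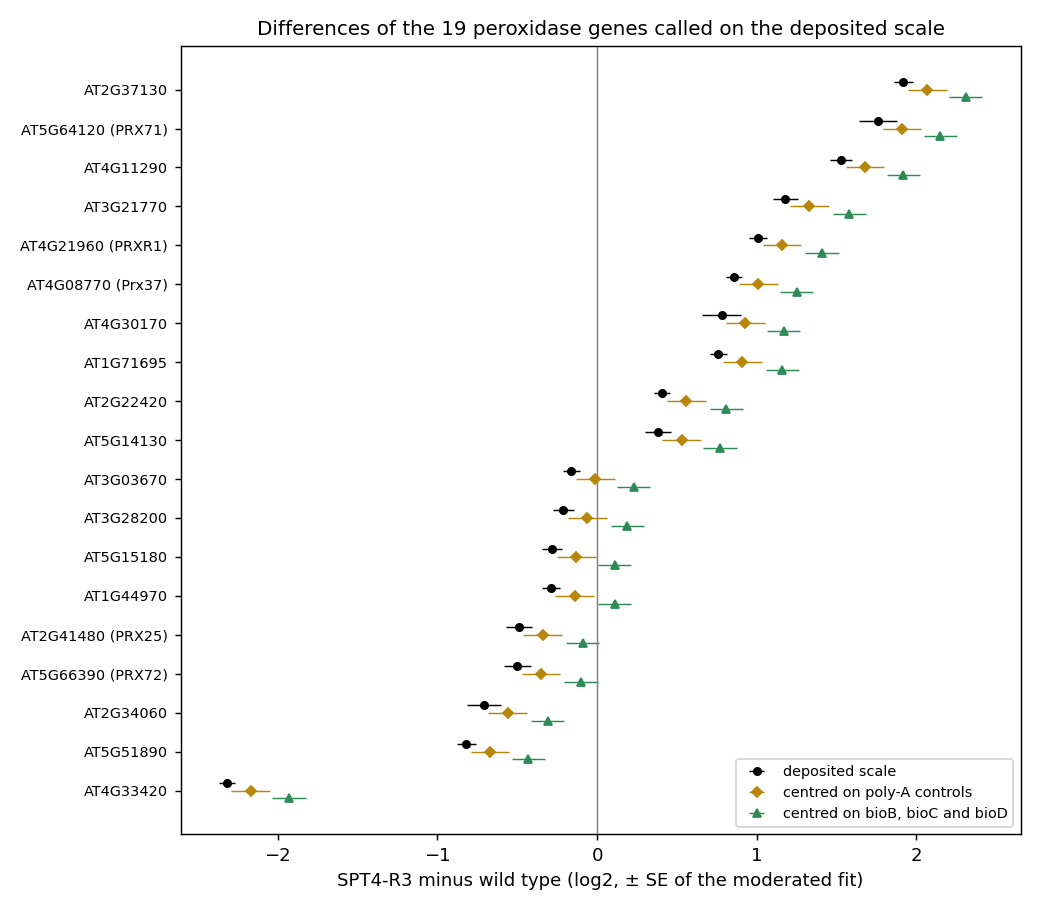
Differences between SPT4-R3 and wild type (log2, ± SE of the moderated fit) for the 19 peroxidase genes called on the deposited scale, on that scale (circles), centred on the poly-A controls (diamonds) and centred on bioB, bioC and bioD (triangles). The 10 higher genes lie right of 0 on all 3 scales, as they must, since both centrings add to every difference. AT4G33420, AT5G51890 and AT2G34060 lie left of 0 on all 3, and the small falls of AT3G03670, AT3G28200, AT5G15180 and AT1G44970 cross 0 on the bioB, bioC and bioD scale.

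The 29 genes that did not pass the test had differences of at most 0.22 in size. The largest was that of AT4G16270, at -0.22 ± 0.134 (SE), with 4.11, 3.84 and 4.11 in SPT4-R3 and 4.36, 4.46 and 3.90 in wild type, and without wild type replicate 3 it was -0.39 with an adjusted p of 0.0103. AT5G58390, the brightest of the 29, read 7.33, 7.53 and 7.48 in SPT4-R3 and 7.27, 7.25 and 7.32 in wild type, a difference of 0.17 ± 0.0633 with an adjusted p of 0.0514 in the limma fit and no overlap, or 0.0136 without SPT4-R3 replicate 1. AT5G06730 also had no overlap, at 4.04, 4.06 and 3.97 in SPT4-R3 and 4.17, 4.18 and 4.08 in wild type (adjusted p = 0.1). The others had mean signals over the 6 arrays between 3.57 (AT1G77100) and 5.68 (AT5G17820).

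**Figure D5:**
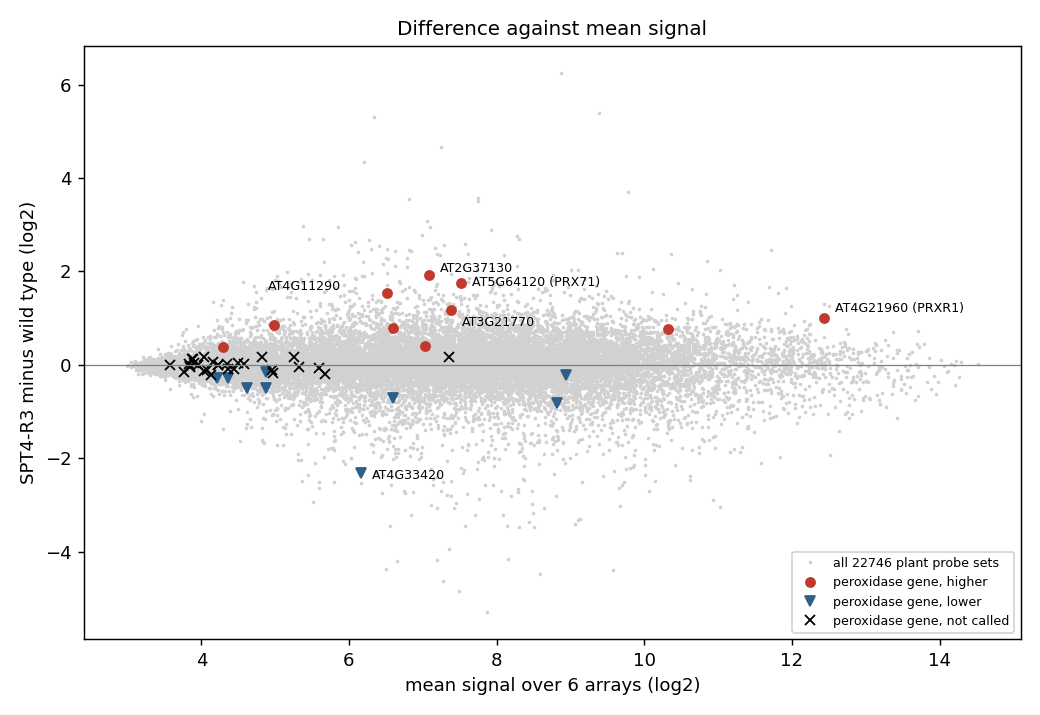
Difference between SPT4-R3 and wild type (log2) against mean signal over 6 arrays (log2) for all 22746 plant probe sets (grey) and the 48 peroxidase genes (red circles higher, blue triangles lower, black crosses not called). The crosses gather at mean signals below 6 with differences near 0, apart from AT5G58390, and AT4G33420 and AT2G37130 lie toward the edges of the cloud.

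Neighbouring peroxidase genes, many of which arose by tandem duplication, did not all give like values. PRX71 has 2 class III peroxidase genes directly before it on chromosome 5, which were not among the 60 loci. AT5G64100 averaged 7.20 ± 0.196 in SPT4-R3 and 6.82 ± 0.142 in wild type, a difference of 0.38 ± 0.102 (SE, limma adjusted p = 0.0101). AT5G64110 averaged 7.09 ± 0.0985 in SPT4-R3 and 7.02 ± 0.0643 in wild type, a difference of 0.07 ± 0.0651 (limma adjusted p = 0.389), beside the 1.76 of PRX71.

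On chromosome 4, Prx37 lies next to AT4G08780, again outside the 60 loci. AT4G08780 read 4.65, 4.40 and 4.58 in SPT4-R3 and 3.96, 4.06 and 4.07 in wild type, a rise of 0.51 ± 0.0717 (SE, limma adjusted p = 0.000183) beside the 0.86 of Prx37. The adjacent genes AT5G19880 and AT5G19890 differed by -0.01 and 0.01 at signals near the trp readings. AT5G58390 differed by 0.17 and its neighbour AT5G58400 by -0.05, and neither passed the test. Near-identical copies may share RNA on a probe set, so a value of a tandem gene may contain signal of its neighbour. Of the 13 class III peroxidase loci outside the set, 7 were measured, of which 2 were called higher, AT5G47000 was called lower and 4 did not pass. Over all plant probe sets 26.4% were called higher and 23.5% lower. The SPT4-R3 values of AT5G47000, 3.77, 3.75 and 3.74, lay inside the trp range, against 3.89, 3.89 and 4.04 in wild type. AT5G47000 turned to 0.21 on the bioB, bioC and bioD scale and lost its call without replicate 3 of wild type (adjusted p = 0.0758 in limma) and without replicate 2 or 3 of SPT4-R3 (0.062 and 0.068).

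Few other genes of lignin and peroxide metabolism had a probe set of their own. Of 19 listed genes of monolignol synthesis, the pathway that makes the substrates class III peroxidases oxidise for lignin, 2 were measured, 1 of them higher and 1 lower. HCT (AT5G48930), a hydroxycinnamoyl transferase of that pathway, averaged 10.78 ± 0.0608 in SPT4-R3 and 11.39 ± 0.03 in wild type and fell by 0.61 ± 0.0545 (SE, limma adjusted p = 7.35e-06). CCR2 (AT1G80820), a cinnamoyl-CoA reductase, averaged 4.94 ± 0.126 in SPT4-R3 and 4.67 ± 0.03 in wild type and rose by 0.27 ± 0.0681.

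Of 11 catalase and ascorbate peroxidase genes, which also consume hydrogen peroxide but inside the cell, 2 were measured and moved in opposite directions. SAPX (AT4G08390), the ascorbate peroxidase of the chloroplast stroma, averaged 9.81 ± 0.0321 in SPT4-R3 and 8.92 ± 0.0551 in wild type and rose by 0.90 ± 0.0538 (SE, limma adjusted p = 4.48e-07). TAPX (AT1G77490), its thylakoid counterpart, averaged 10.24 ± 0.104 in SPT4-R3 and 10.92 ± 0.114 in wild type and fell by 0.68 ± 0.0749 (limma adjusted p = 3.44e-05).

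UPB1 (AT2G47270), a transcription factor known to repress peroxidase genes in roots, averaged 3.52 ± 0.0361 in SPT4-R3 and 3.87 ± 0.0436 in wild type. It fell by 0.35 ± 0.0527 (SE, limma adjusted p = 0.000305), but both genotypes were near background. Its SPT4-R3 values lay inside the trp range, and its wild-type values of 3.82, 3.89 and 3.9 lay at the upper end of it or just above. On the bioB, bioC and bioD scale the difference was 0.04. None of 3 measured NADPH oxidase genes of 10, whose products feed peroxide to the wall, and not the 1 measured laccase of 17, LAC16, passed the test, with differences between -0.08 and 0.07 at signals of 3.46 to 4.32. No gene of the Casparian strip list (7 genes) or the secondary wall list (11 genes) had a probe set of its own.

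Markers of tissue were set beside these values. Of 8 root markers, 3 were measured and none passed the test, with differences of -0.12 for EXPA7, 0.01 for EXPA18 and -0.02 for PYK10. EXPA7 averaged 4.83 in SPT4-R3 and 4.95 in wild type, and PYK10, bright in both genotypes, stood at 11.76 in SPT4-R3 and 11.77 in wild type. The listed root markers did not give a like reading. In wild type PYK10 lay above 98.0% of plant probe sets, and EXPA7 and EXPA18 above 33.4% and 35.6%. All 3 root markers were called higher on the bioB, bioC and bioD scale, as were 76.5% of all plant probe sets. That scaling adds the same 0.39 to every difference, so these are not 3 separate results. Of 5 leaf markers, 2 were measured and both fell, LHCB4.1 by 0.51 ± 0.0502 (SE) and LHCB4.2 by 1.14 ± 0.0513, although both stayed among the bright probe sets at 13.22 and 12.85 in SPT4-R3. LHCB4.1 lost its call on the bioB, bioC and bioD scale (difference -0.12). The part of tissue composition in the peroxidase values was not tested, and in whole shoots fewer cells of a type and less RNA per cell cannot be told apart.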

How the data were processed

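RNA of 6 samples was hybridised to 1 ATH1 oligonucleotide array each. The deposited table gives 1 value per probe set and array, read as log2 signal from its range, and Affymetrix Expression Console is named in the submitters' processing notes. No source used here states how background was corrected or arrays were normalized. Arrays carry no counts, so their number limits the precision.

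Of 22810 probe sets, 64 controls were set aside and 22746 were tested. In the platform annotation 13513 of these have 1 gene, 503 have several and 8730 have none. Genes were matched by Entrez identifier to RefSeq genes of assembly TAIR10.1 for names and gene order. All 60 loci are in it. The planned groups of function were not used, because the table names only 7 of the measured genes.

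On the deposited log2 values, genotypes were compared by lmFit and eBayes of limma 3.58.1 (R 4.3.3), without the trend or robust options and with Benjamini-Hochberg adjustment. On simulated arrays with 22746 probe sets, this fit found 9 of 50 changes of 0.25, 40 of 50 of 0.5, 49 of 50 of 1 and 50 of 50 of 2, with 5 false calls. Only 50 probe sets per size were changed there, whereas 49.9% of plant probe sets were called between the genotypes. The adjustment was thus stricter in the simulation, so its recovery and false calls do not carry over to the comparison of genotypes. Control sets were compared by exact permutation over arrays.

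Genes described in full passed the test by at least 0.5 without overlap or were among the 4 brightest in wild type. Named genes just under that size, and the genes not called, were added after their values were seen. For the other lists, the genes with the smallest p were named. The members and lists were chosen with earlier results of these data known. The alternatives were other scalings, filters on dim probe sets, other variance settings, a replicate block and a test against 0.5. Further ones removed probe sets named _s_at or _x_at, averaged the probe sets per gene, and left out each array in turn.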

Additional observations from a re-analysis of the deposited data

How the results depend on the processing

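Of the 19 calls, 9 held under all 17 alternatives, 7 higher (AT2G37130, PRX71, AT4G11290, AT3G21770, PRXR1, Prx37 and AT1G71695) and 2 lower (AT4G33420 and AT5G51890). Not all alternatives could unsettle a call. Removal of probe sets named _s_at or _x_at and averaging per gene could not change the difference of a measured gene, and the control scalings could only raise it. The 10 higher and 9 lower genes became 38 and 3 on the bioB, bioC and bioD scale and 15 and 5 on the poly-A scale, where a constant is added to every difference, and 7 and 2 against a difference of 0.5, a stricter question (5.28% and 5.37% of all plant probe sets). Leaving out 1 array gave 10 to 11 higher and 7 to 11 lower, where 23.4% to 25.2% and 20.4% to 22.2% of all plant probe sets were called. AT1G14550, AT1G24110, AT1G30870, AT2G35380, AT3G49960, AT4G16270 and AT5G58390 were each called in at least 1 of these fits. On the bioB, bioC and bioD scale negative differences turned to 0.34 for AT1G34510 and AT2G18980, 0.11 for AT1G44970 and AT5G15180, and 0.30 for AT1G49570. They turned to 0.37 for AT1G68850, 0.22 for AT2G35380, 0.29 for AT3G01190, 0.23 for AT3G03670, and 0.19 for AT3G28200 and AT5G17820. AT3G49960 turned to 0.24, AT4G16270 to 0.17, AT4G17690 to 0.25, AT4G36430 to 0.35, and AT4G26010 and AT5G19880 to 0.39. PRX52 (AT5G05340) turned to 0.38, AT5G06730 to 0.27 and AT5G24070 to 0.31. Outside the set the differences that turned positive were 0.31 for LAC16 (AT5G58910), 0.39 for AT1G19230, 0.28 for EXPA7 (AT1G12560) and 0.38 for PYK10 (AT3G09260). UPB1 (AT2G47270) turned to 0.04, AT5G47000 to 0.21 and AT5G58400 to 0.34. Without the dimmest 30 percent of probe sets 23 peroxidase genes were left, 10 higher and 6 lower, against 35.5% and 30.2% of all plant probe sets that were left. The filter removed AT5G14130 from the higher genes and AT1G44970, AT5G15180 and PRX72 from the lower ones. AT5G58390 was newly called higher (limma adjusted p = 0.0407).

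With the replicate number as a block 10 genes were higher and 8 lower (24.9% and 22.0% of all plant probe sets), AT3G03670 losing its call at an adjusted p of 0.0637 in limma. The deviations of same-numbered arrays correlated at -0.24, -0.13 and -0.06, and no SPT4-R3 array correlated best with the wild-type array of its own number, so the numbers were not taken to pair the arrays. On the wild-type arrays 8 of the 48 genes did not exceed the highest trp reading on all 3.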
